A study of Mus musculus with 4 samples.

Results

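The beta chain of the T cell receptor is assembled from a V segment (TRBV), a D segment and a J segment (TRBJ), and the choice of V and J was examined here in tumor-infiltrating T cells (TILs). Segments were read from the receptor contigs of 2 pooled libraries, with the beta contig of most UMIs (distinct RNA molecules) taken for each cell. The contigs named 21 TRBV and 12 TRBJ segments, and these 33 were all seen in both libraries, out of 165 V and J segments of either chain. A beta contig was found in 7525 of 10224 WT cells and in 8212 of 9946 VISTA-KO cells that passed the filters on detected genes and mitochondrial RNA.

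The mice were Vsir fl/fl littermates without Cre (WT) or Vsir fl/fl mice with CD4-Cre (VISTA-KO), all on the C57BL/6 background. The methods give an age of 6 to 8 weeks for C57BL/6 mice inoculated with B16 tumors. They give no separate age for these pools. CD4-Cre acts in the thymus while T cells express CD4, so that CD8+ and CD4+ T cells both lose the floxed gene. All mice carried B16 melanoma, a transplanted line of the same background. All received a TRP2 peptide vaccine with CpG and R848 on day 3 after tumor inoculation. They received 100 µg of anti-CTLA-4 (clone 9H10) on days 4 and 8 after inoculation. Tumors of 5 to 6 mice per genotype were pooled according to the methods. The figure legend gives 6 to 8 tumors and isolation on day 18 after treatment. Sorted CD4+ and CD8+ TILs were loaded together. Each genotype was therefore 1 pool and 1 library of each kind, no test between genotypes was possible, and every interval given is an exact Clopper-Pearson 95% interval that covers counting error only. Which mouse a cell came from is not given, and a clonotype expanded in a single mouse can set the share of a whole pool.

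Developing T cells join TRBD to TRBJ and then TRBV to TRBDJ, with bases trimmed and added at random at each joint. The joint encodes the junction (CDR3 with its conserved first and last residues), the most variable loop of the receptor and the main contact with peptide, whereas the V segment itself encodes the loops that mostly touch the MHC molecule. The locus lies on chromosome 6 of GRCm38, the build the contigs were annotated with. TRBV1 stands at its far end at chr6:40891296-40891885, 641 kb from TRBD1. TRBV30 at chr6:41281376-41281990 is the last V segment before the D and J clusters. TRBV31 at chr6:41557693-41558371 lies beyond TRBC2 and is joined by inversion. TRBJ1 segments lie before TRBC1 and TRBJ2 segments between TRBD2 and TRBC2.

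Cells were assigned to 3 classes by their own UMIs: CD8 (Cd8a or Cd8b1 and no Cd4), conventional CD4 (Cd4 and no Foxp3) and regulatory (Cd4 and Foxp3, the transcription factor of regulatory T cells). A beta contig was present in 4414 WT and 3811 VISTA-KO CD8 cells, in 1247 and 2520 conventional CD4 cells, and in 800 and 960 regulatory cells. Cells with identical V, J and junction bases were counted as 1 beta clonotype, which gave 1193 and 1742 CD8 clonotypes, 817 and 1581 conventional CD4 clonotypes and 551 and 836 regulatory clonotypes. A clonotype with cells in more than 1 class was counted in each, so the classes overlap. The largest WT CD8 clonotype, for example, also had 25 conventional CD4 and 2 regulatory cells. Usage by cells weights each clonotype by its size in the tumor. Usage by clonotypes counts each one once and so describes how many separate rearrangements used a segment.

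Some features of the libraries bear on every value. Vsir, the gene of VISTA, was at 112 CPM in the WT library and 113 CPM in the other. Which part of the gene the deletion removes is not given in the sources used here, so Vsir UMIs do not check the labels, and WT and VISTA-KO stand for the libraries labelled so. Regulatory cells of both libraries carried all 5 regulatory markers (Foxp3, Il2ra, Ikzf2, Ctla4, Tnfrsf18), with a summed level of 2564 and 3284 CPM against 538 and 522 CPM in CD8 cells, Foxp3 itself having been used to choose them. Of cells with Siglech, a plasmacytoid dendritic cell gene, and no Cd3e, 1 of 145 WT cells and 0 of 103 VISTA-KO cells (3 counts of that total would be 2.91%, and the exact upper limit is 3.52%) had a beta contig, at median depths of 8299 and 8712 UMIs. The libraries shared 144 barcodes of cells that passed the filters, 81 of them with a beta contig in both, and none of these pairs had the same beta clonotype.

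A beta contig was missing more often in WT than in VISTA-KO, and not at random with respect to depth. Contigs covered 79.5% of WT and 87.6% of VISTA-KO CD8 cells, 70.5% and 82.7% of conventional CD4 cells, and 52.4% and 75.6% of regulatory cells. WT regulatory cells without a contig had a median of 13895 UMIs against 5950 in those with one, 77.2% of them held a Cd8a or Cd8b1 UMI against 29.0%, and 64.8% against 10.9% had at least 3 UMIs of each of 2 or more Trbv genes. The same 3 measures were also higher without a contig in the other 2 classes, except for the Cd8 UMIs that define the CD8 class. Plasmacytoid dendritic markers (Siglech, Ly6d, Ccr9, Irf8) summed to 948 and 441 CPM in conventional CD4 cells of WT and VISTA-KO, 252 and 245 CPM in CD8 and 267 and 189 CPM in regulatory cells. Melanoma markers (Mlana, Pmel, Dct, Tyrp1) also differed, with a summed level of 10.2 and 194 CPM in CD8, 204 and 15.7 CPM in conventional CD4 and 5.57 and 190 CPM in regulatory cells of WT and VISTA-KO. The part of these features in the results was not tested beyond the values given beside each.

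Much of the CD8 usage by cells came from a few large clonotypes. The junctions of the 3 largest CD8 beta clonotypes of each library are shown, 5′ to 3′ from the codon of the conserved cysteine to that of the last phenylalanine. The bases in capitals lie between the parts matched to the V and the J segment. The matched bases next to the capitals differ between clonotypes that share a segment. Capitals therefore need not hold all that D sequence and base addition contributed.

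WT, TRBV12-2 with TRBJ2-7: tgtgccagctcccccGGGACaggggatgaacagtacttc
WT, TRBV10 with TRBJ2-4: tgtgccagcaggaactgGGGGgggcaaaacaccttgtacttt
WT, TRBV20 with TRBJ2-4: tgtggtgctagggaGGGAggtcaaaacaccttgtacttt
VISTA-KO, TRBV13-1 with TRBJ2-7, first: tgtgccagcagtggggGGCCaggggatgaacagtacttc
VISTA-KO, TRBV13-1 with TRBJ2-7, second: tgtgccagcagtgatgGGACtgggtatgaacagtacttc
VISTA-KO, TRBV19 with TRBJ1-2: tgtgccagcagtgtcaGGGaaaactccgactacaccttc

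These 6 clonotypes held 1061, 318 and 84 WT cells and 298, 151 and 62 VISTA-KO cells of the CD8 class. The TRBV12-2 clonotype alone made up 24.0% of WT CD8 cells with a beta contig, and the largest VISTA-KO clonotype 7.82%. The largest WT clonotype was in 0 VISTA-KO cells. Both VISTA-KO clonotypes with TRBV13-1 and TRBJ2-7 had junctions of 13 amino acids and differed in bases between the V and J matches and next to them.

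By cells, CD8 TILs of the 2 libraries differed mainly in TRBV12-2, TRBV13-1 and TRBV10. TRBV12-2 was in 25.6% (24.3 to 26.9) of CD8 cells in WT and 5.35% (4.66 to 6.12) in VISTA-KO. TRBV13-1 was in 6.73% (6.01 to 7.51) of them in WT, and the VISTA-KO share was 18.001% (16.8 to 19.3). TRBV10 was in 9.49% (8.64 to 10.4) and 2.76% (2.26 to 3.33). RefSeq lists Trbv10 as a pseudogene, and Trbv4 was the leading Trbv gene of most of these cells in the expression libraries. Of 19 TRBV segments with at least 2% of CD8 cells in a library, 9 (47.4%) differed 1.5 times or more, and the intervals of the same 9 did not overlap. TRBV3 (3.78% and 8.13%), TRBV12-1 (3.44% and 7.66%), TRBV14 (1.86% and 3.70%), TRBV15 (0.838% and 2.31%) and TRBV31 (2.40% and 4.54%) were also higher in VISTA-KO, and TRBV20 was lower, at 3.81% and 1.34%. TRBV16 at 7.95% and 8.19%, TRBV5 at 5.89% and 5.77% and TRBV19 at 5.85% and 5.48% differed by less than counting error.

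**Figure D1:**
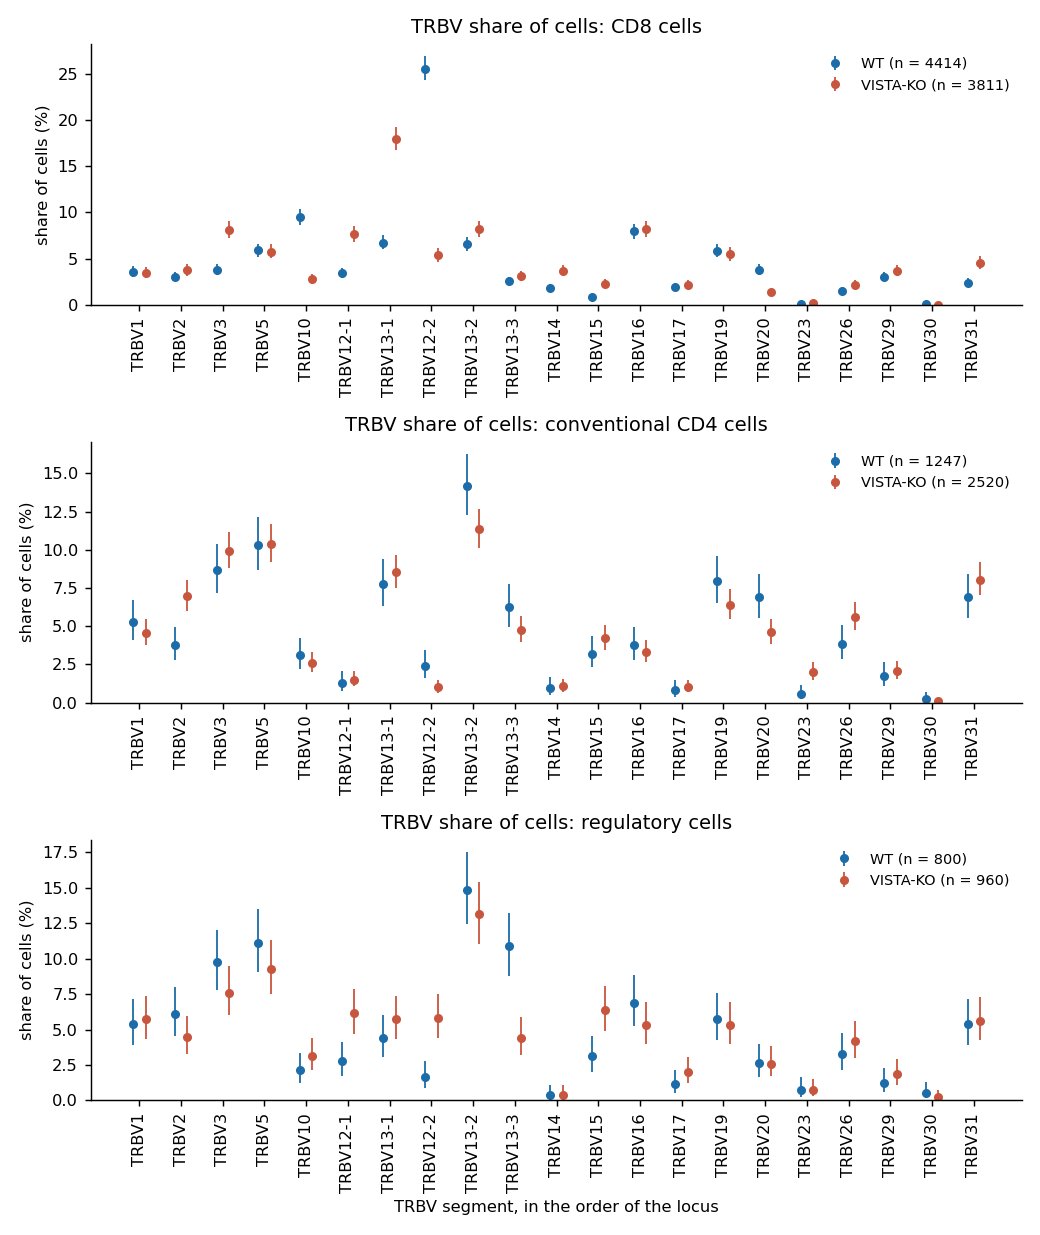
Share of cells with each TRBV segment (%, y axes start at 0), in the order of the locus, in CD8, conventional CD4 and regulatory cells of the WT (blue) and VISTA-KO (red) library. Points are single libraries and bars exact 95% intervals of counting error; TRBV12-2 at 25.6% in WT and TRBV13-1 at 18.001% in VISTA-KO stand above the other segments in CD8 cells.

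When each CD8 clonotype was counted once, most of these differences were gone. TRBV13-1 was used by 7.80% (6.34 to 9.47) of clonotypes in WT, and the VISTA-KO share was 7.12% (5.96 to 8.43), and TRBV10 by 3.94% and 3.90%. TRBV12-2 was now lower in WT, with 4.27% (3.20 to 5.58) against 6.66% (5.53 to 7.93). The distance between the libraries, the sum of absolute differences in share divided by 2, was 30.1 percentage points by cells and 10.0 by clonotypes. Of 19 segments with at least 2%, 3 (15.8%) differed 1.5 times or more, namely TRBV12-2, TRBV19 (9.14% and 5.86%) and TRBV20 (3.19% and 1.95%), and the intervals did not overlap for TRBV19 only. A distance cannot fall below 0 and grows as fewer units are counted, so the smaller distances, here and below, hold counting error. The distance that counting alone would give at these counts was not computed.

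The leading clonotypes show where the 2 counts part. The largest clonotype held 94.0% of the WT CD8 cells with TRBV12-2, and 75.9% of those with TRBV10. In VISTA-KO, 43.4% of CD8 cells with TRBV13-1 belonged to the largest clonotype, while the largest TRBV12-2 clonotype of that library had 17 cells. Cells per clonotype were 22.1 for TRBV12-2 in WT and 1.76 in VISTA-KO, and 3.19 and 5.53 for TRBV13-1. Once the biggest clonotype in either library was removed, TRBV12-2 changed direction, from -2.26 to 1.52 as log2 of the VISTA-KO share over the WT share, and the ratio for TRBV13-1 fell from 1.42 to 0.32. The distance between the libraries by cells was then 19.1 percentage points.

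The number of segments that carried the CD8 cells differed in the same way. The effective number of TRBV segments (the inverse Simpson index, which equals the number of segments when all are used alike) was 9.44 in WT and 12.8 in VISTA-KO by cells, and 16.5 and 16.8 by clonotypes. Among CD8 clonotypes of 10 cells or more, TRBV13-1 had 9 of 57 in WT and 6 of 52 in VISTA-KO, TRBV16 had 9 and 5, and TRBV3 had 3 and 7. Over all CD8 clonotypes, TRBV13-1 had 7.80% and 7.12%, TRBV16 6.04% and 8.38%, and TRBV3 6.54% and 6.26%. In WT, 12 segments each had at least 2 of these 57 expanded clonotypes.

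**Figure D2:**
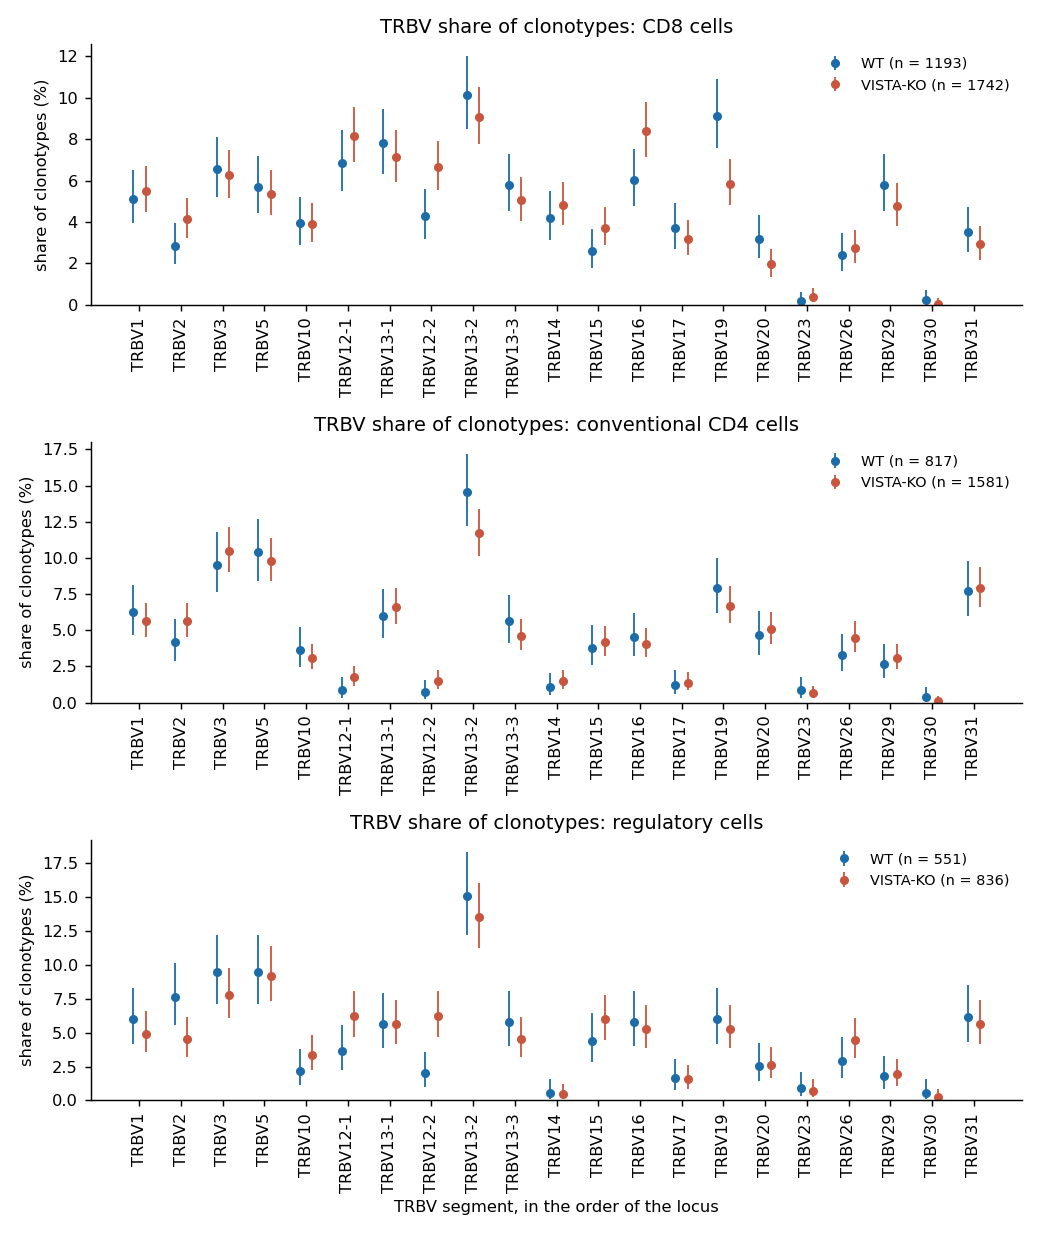
Share of beta clonotypes with each TRBV segment (%, each clonotype counted once, y axes start at 0), in the order of the locus and in the same 3 classes, for WT (blue) and VISTA-KO (red), with exact 95% intervals. The intervals of the libraries do not overlap for TRBV19 in CD8 cells (9.14% and 5.86%) and for TRBV12-2 in regulatory cells (2.00% and 6.22%). They overlap for every other segment and class.

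In conventional CD4 TILs the libraries were closer. TRBV13-2 led in both, with 14.2% (12.3 to 16.3) of cells in WT and a VISTA-KO share of 11.3% (10.1 to 12.7), followed by TRBV5 with 10.3% and 10.4% and TRBV3 with 8.66% and 9.92%. TRBV31 was in 6.90% and 8.06%, TRBV19 in 7.94% and 6.39%, and TRBV13-1 in 7.78% and 8.53%. By cells 3 of 17 segments (17.6%) differed 1.5 times or more: TRBV2 (3.77% and 6.94%), TRBV23 (0.561% and 2.02%) and TRBV12-2 (2.41% and 0.992%). By clonotypes none of 15 did (0.0%), TRBV12-2 being under 2% at 0.734% and 1.52%, and the distance was 7.86 percentage points. The intervals of these 3 and of TRBV20 (6.90% and 4.60%) did not overlap by cells, and those of no segment failed to by clonotypes. TRBV23 in VISTA-KO rested on a TRBV23 and TRBJ1-6 clonotype of 41 conventional CD4 cells. TRBV12-2 in WT rested on 25 cells with the beta chain of the largest CD8 clonotype, and all 25 also held a Cd8a or Cd8b1 UMI. Among conventional CD4 cells without such a UMI the log2 ratio for TRBV12-2 was 1.08, in the opposite direction. That ratio rested on few WT cells, since the 25 were among 30 WT conventional CD4 cells with TRBV12-2.

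In regulatory TILs TRBV12-1 and TRBV12-2 differed between the libraries by cells and by clonotypes. TRBV12-2 was used by 11 of 551 WT clonotypes (2.00%, 1.00 to 3.54) and by 52 of 836 VISTA-KO clonotypes (6.22%, 4.68 to 8.08), and TRBV12-1 by 20 (3.63%, 2.23 to 5.55) and 52 (6.22%, 4.68 to 8.08). By cells the shares were 1.63% and 5.83% for TRBV12-2 and 2.75% and 6.15% for TRBV12-1. Of 16 segments, 4 (25.0%) by cells and 5 (31.2%) by clonotypes differed 1.5 times or more, and of the latter the intervals did not overlap for TRBV12-2 only. The others by clonotypes were TRBV10 (2.18% and 3.35%), TRBV26 (2.90% and 4.43%) and TRBV2 (7.62% and 4.55%). In regulatory cells without a Cd8a or Cd8b1 UMI the log2 ratios by clonotypes were 1.80 for TRBV12-2 and 1.32 for TRBV12-1, against 1.64 and 0.78 among all.

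The expression library gave another picture for TRBV12-2 over all regulatory cells, contig or not. Trbv12-2 was at 192 CPM in regulatory cells of WT and 93.0 CPM in those of VISTA-KO, a log2 ratio of -1.01. In cells with a contig it made up 2.62% of WT and 6.87% of VISTA-KO Trbv UMIs, and in cells without one 18.8% and 6.21%. Among WT regulatory cells without a contig and without a Cd8a or Cd8b1 UMI, 166 of 728, the share was 7.02%, against 3.79% in VISTA-KO. With a contig and without such a UMI, 568 WT and 736 VISTA-KO cells, it was 1.82% and 6.41%. The higher TRBV12-2 share of VISTA-KO regulatory cells therefore held for cells with a contig and not for UMIs summed over the class. Deep cells add more to such a sum, so it does not give a share of cells. For Trbv12-1 the summed UMIs had the direction of the contigs, at 24.6 and 54.8 CPM.

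TRBV13-3 and TRBV15 were the other segments that differed by cells in regulatory TILs. TRBV13-3 was in 10.9% (8.80 to 13.2) of cells in WT, and the VISTA-KO share was 4.38% (3.17 to 5.87), and in 5.81% and 4.55% of clonotypes. A TRBV13-3 and TRBJ2-1 clonotype of 45 cells, 5.63% of WT regulatory cells with a contig, was the largest of the class. TRBV15 was in 3.13% and 6.35% of cells and in 4.36% and 5.98% of clonotypes. The largest VISTA-KO regulatory clonotype had 7 cells, and 90.1% of regulatory clonotypes of that library were single cells, against 82.6% in WT.

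CD8 and conventional CD4 cells differed more by clonotypes than the genotypes did, and both libraries showed most of these differences in the same direction. Both classes of a library came from the same pool, and the classes differ in the MHC molecule their receptors were selected on, class I for CD8 and class II for CD4. TRBV12-1 was used by 6.87% (5.50 to 8.46) of WT CD8 clonotypes and 0.857% (0.345 to 1.76) of WT conventional CD4 clonotypes, 8.02 times more. In VISTA-KO the shares were 8.15% (6.91 to 9.54) and 1.77% (1.18 to 2.55), 4.60 times more. TRBV12-2 was 5.82 and 4.39 times more frequent among CD8 clonotypes, TRBV14 3.80 and 3.18 times (4.19% against 1.10% in WT, 4.82% against 1.52% in VISTA-KO), TRBV17 3.01 and 2.27 times and TRBV29 2.15 and 1.54 times.

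Fewer segments passed 1.5 times toward conventional CD4 in both libraries. TRBV31 was 2.19 and 2.70 times more frequent among conventional CD4 than among CD8 clonotypes, with 7.71% against 3.52% in WT and 7.91% against 2.93% in VISTA-KO. TRBV5 was 1.83 and 1.84 times more frequent, with 10.4% against 5.70% and 9.80% against 5.34%. TRBV23 was 5.11 and 1.57 times more frequent, on 2 WT and 7 VISTA-KO CD8 clonotypes. In all, 20 of 21 TRBV segments lay on the same side in both libraries, 9 toward CD8 and 11 toward conventional CD4, with TRBV19 as the exception. Of these 5 passed 1.5 times toward CD8 in both libraries and 3 toward CD4. The intervals of 8 segments in WT and 9 in VISTA-KO did not overlap, and 6 of them were the same, TRBV12-1, TRBV12-2, TRBV14 and TRBV17 toward CD8 and TRBV5 and TRBV31 toward CD4.

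**Figure D3:**
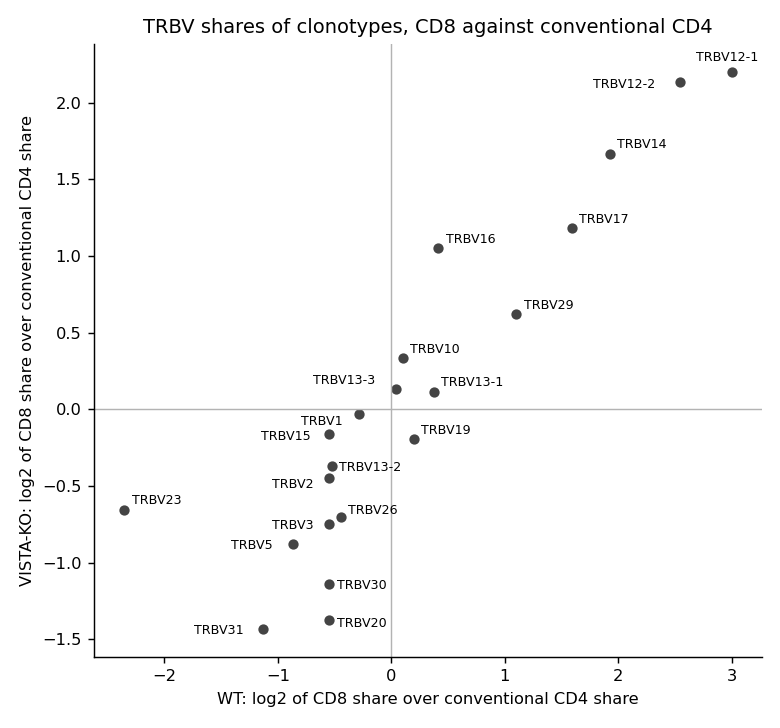
Each point is a TRBV segment; the axes give log2 of its share of CD8 clonotypes over its share of conventional CD4 clonotypes in WT (x) and VISTA-KO (y), with lines at 0 for equal shares. TRBV12-1, TRBV12-2, TRBV14, TRBV17 and TRBV29 lie at the upper right and TRBV31 and TRBV5 at the lower left; TRBV23 rests on few clonotypes.

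Regulatory cells differed from CD8 cells in some of these segments and from conventional CD4 cells in others. TRBV14 was in 0.544% of WT and 0.478% of VISTA-KO regulatory clonotypes, 7.70 and 10.1 times less than in CD8, on 3 and 4 regulatory clonotypes. TRBV29 was at 1.81% and 1.91%, against 5.78% and 4.76% in CD8. TRBV12-1 and TRBV12-2 were 4.24 and 2.72 times more frequent among WT regulatory than WT conventional CD4 clonotypes, and 3.51 and 4.10 times in VISTA-KO. The WT value for TRBV12-2 rested on 11 regulatory and 6 conventional CD4 clonotypes, with overlapping intervals. Both counts include the largest WT CD8 clonotype. CD8 clonotypes used them 1.89 and 2.14 times more than regulatory clonotypes in WT and 1.31 and 1.07 times more in VISTA-KO. The distance between CD8 and conventional CD4 was 23.1 and 24.4 percentage points, that between CD8 and regulatory 23.1 and 18.04, and that between conventional CD4 and regulatory 10.6 and 14.6, in WT and VISTA-KO. Cells of either CD4 class that held a Cd8a or Cd8b1 UMI made up 18.9% and 14.7% of conventional CD4 and 29.0% and 23.3% of regulatory cells with a contig.

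The ends of the locus were used unevenly. TRBV1 was in 5.11% and 5.51% of CD8 clonotypes, 6.24% and 5.63% of conventional CD4 and 5.99% and 4.90% of regulatory clonotypes. TRBV30, 251 kb before TRBD1, was in 10 WT and 6 VISTA-KO clonotypes of all classes. TRBV2 and TRBV3, which follow TRBV1, were in 140 and 240 WT clonotypes and in 213 and 375 VISTA-KO clonotypes. TRBV13-2, in the middle of the locus, was the most used segment by clonotypes in all 3 classes of both libraries, from 9.07% in VISTA-KO CD8 to 15.1% in WT regulatory cells. RefSeq lists 35 TRBV segments, 22 of them as functional, and 19 of these were found.

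J usage differed between the libraries by cells and hardly by clonotypes. TRBJ2-7 was in 38.7% of WT and 29.1% of VISTA-KO CD8 cells and in 20.5% (18.2 to 22.9) and 20.3% (18.4 to 22.2) of CD8 clonotypes. TRBJ2-4 was in 20.4% and 10.3% of CD8 cells and in 10.1% and 9.36% of clonotypes. TRBJ1-2 (2.33% and 6.32%), TRBJ1-6 (1.63% and 3.49%), TRBJ2-2 (1.95% and 5.43%) and TRBJ2-5 (4.42% and 10.1%) were higher in VISTA-KO CD8 cells, and TRBJ1-5 (3.06% and 1.84%) lower. These 5 and TRBJ2-4, 6 of 12 TRBJ segments (50.0%), differed 1.5 times or more by cells and none (0.0%) by clonotypes, where TRBJ1-1 was at 10.7% and 10.3%, TRBJ2-1 at 11.8% and 13.9%, TRBJ2-5 at 11.1% and 12.2% and TRBJ2-3 at 8.13% and 7.12%. By clonotypes TRBJ1-3 was at 5.62% and 3.79% and TRBJ1-4 at 5.95% and 5.45%. The distance between the libraries by clonotypes was 4.89 percentage points in CD8, 6.34 in conventional CD4 and 5.55 in regulatory cells. Distances this small hold counting error to an unknown degree, so the classes are not ranked by them. No interval of a TRBJ share by clonotypes failed to overlap between libraries in any class.

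**Figure D4:**
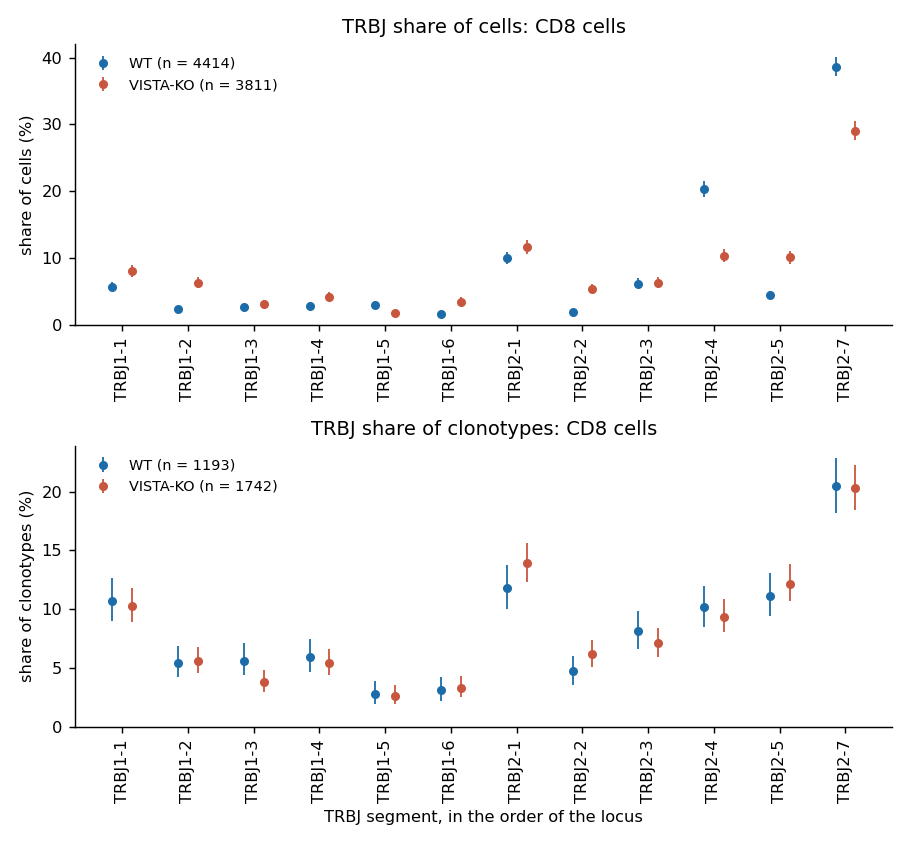
Share of CD8 cells (top) and of CD8 beta clonotypes (bottom) with each TRBJ segment (%, y axes start at 0), in the order of the locus, for WT (blue) and VISTA-KO (red), with exact 95% intervals. TRBJ2-7 and TRBJ2-4 are higher in WT by cells, at 38.7% and 20.4%, and the libraries overlap at every segment by clonotypes.

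In conventional CD4 cells TRBJ1-1 (11.9% and 7.18%), TRBJ1-6 (2.97% and 6.39%) and TRBJ2-2 (6.26% and 9.80%) differed 1.5 times or more by cells, 3 of 12 (25.0%). TRBJ1-6 was the only such segment by clonotypes (8.33%), at 2.82% and 4.62%. In regulatory cells TRBJ1-6 (2.00% and 4.38%) and TRBJ2-1 (16.6% and 8.54%) differed by cells (16.7%), and TRBJ1-6 again alone by clonotypes (8.33%), at 2.90% and 4.67%. TRBJ2-1 in WT regulatory cells held the 45 cells of the TRBV13-3 clonotype and 17 cells of a TRBV3 clonotype. With the largest clonotypes left out the log2 ratio of TRBJ2-1 moved from -0.96 to -0.44.

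The second J cluster was used more than the first in every class. TRBJ2 segments made up 66.4% and 68.9% of CD8 clonotypes, 64.6% and 64.4% of conventional CD4 and 70.6% and 67.1% of regulatory clonotypes in WT and VISTA-KO. By cells the CD8 shares were 81.6% and 73.0%. Single V segments departed from these values over the clonotypes of all classes, with 54.2% and 60.6% for TRBV1 and 81.8% and 80% for TRBV17, which had 66 and 95 clonotypes. TRBC1 followed TRBJ1 in 1888 WT and 2666 VISTA-KO contigs and TRBC2 followed TRBJ2 in 6024 and 6088, with no contig of the other pairing in either library. TRBD2 was called with TRBJ1, which lies before it, in 2 WT and 1 VISTA-KO contigs and with TRBJ2 in 938 and 731. A D segment was called in 36.8% and 21.4% of beta contigs. TRBD1 was called with TRBJ2 in 1608 WT and 634 VISTA-KO contigs and with TRBJ1 in 376 and 517. These counts weight each clonotype by its size, and D calls by clonotypes were not computed.

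Most V and J segments were found together. Of 252 possible pairs, 237 were seen in WT and 242 in VISTA-KO. The pair with most clonotypes was TRBV13-2 with TRBJ2-7, with 83 WT and 102 VISTA-KO clonotypes, 1.02 and 1.01 times the product of the 2 segments' own shares. TRBV13-2 with TRBJ2-5 had 73 and 92 clonotypes, 1.39 and 1.35 times the product, and TRBV13-1 with TRBJ2-7 had 55 and 73, 1.48 and 1.34 times. TRBV3 with TRBJ2-7 (44 and 72) and TRBV5 with TRBJ2-7 (41 and 64) lay close to the product, at 0.973 and 1.02 and at 0.930 in both.

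Mean junction length differed little between classes and libraries when each clonotype was counted once. The mean was 13.96 ± 1.44 amino acids (SD over 1193 clonotypes) in WT CD8 and 13.97 ± 1.44 (1742) in VISTA-KO CD8. It was 13.93 ± 1.398 and 13.88 ± 1.30 in conventional CD4 and 13.95 ± 1.38 and 13.83 ± 1.37 in regulatory cells. Junctions of 15 amino acids or more made up 36.0% (33.3 to 38.8) and 36.3% (34.1 to 38.6) of CD8 clonotypes, 34.4% and 32.1% of conventional CD4 and 34.3% (30.3 to 38.4) and 30.02% (26.9 to 33.3) of regulatory clonotypes. In VISTA-KO the intervals of CD8 did not overlap those of regulatory clonotypes, and in WT they did. By cells the CD8 shares were 23.7% in WT and 32.6% in VISTA-KO, and the largest clonotype of each library had a junction of 13 amino acids. The median number of bases between the V and J matches was 5 or 6 in every class, and 10.2% and 10.5% of CD8, 13.3% and 12.2% of conventional CD4 and 10.9% and 11.48% of regulatory clonotypes had none. The matches can hold bases that differ between clonotypes of a segment, so these values are not counts of D and added bases.

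The J segment moved junction length more than class or genotype did. Clonotypes with TRBJ2-7 had a mean of 13.34 ± 1.44 amino acids in WT (566 clonotypes) and 13.23 ± 1.36 in VISTA-KO (865), and those with TRBJ1-1 had 13.28 ± 1.39 and 13.20 ± 1.25. Clonotypes with TRBJ2-2 were the longest at 14.73 ± 1.29 and 14.66 ± 1.28, and TRBJ2-3 was at 14.53 and 14.39 and TRBJ1-6 at 14.31 and 14.40. The J match covered a median of 19 junction bases for TRBJ2-7, 20 for TRBJ1-1, 23 for TRBJ2-2 and 25 for TRBJ1-6, the same in both libraries. The 3′ end shared by at least 80% of the clonotypes of a J segment, both libraries together, is shown for these 4. It was shorter than the median J match in each, and longer in TRBJ2-2 (19 bases) and TRBJ1-6 (18) than in TRBJ1-1 (15) and TRBJ2-7 (13). TRBJ2-2 had longer junctions than TRBJ1-6 with fewer matched bases, and TRBJ2-3 had a median match of 21. The matched J bases alone therefore did not order the segments.

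TRBJ2-7: tgaacagtacttc
TRBJ1-1: acagaagtcttcttt
TRBJ2-2: caccgggcagctctacttt
TRBJ1-6: aattcgcccctctacttt

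Among V segments, TRBV5 had the longest junctions of those with over 100 clonotypes in both libraries, at 14.56 ± 1.33 and 14.44 ± 1.33, and TRBV20 the shortest, at 13.15 ± 1.36 and 13.33 ± 1.20. The V match covered a median of 17 bases of the junction for TRBV5 and 14 for TRBV20. TRBV31, with 14 bases, was at 13.93 and 13.67, so that the matched V bases alone did not order the segments.

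**Figure D5:**
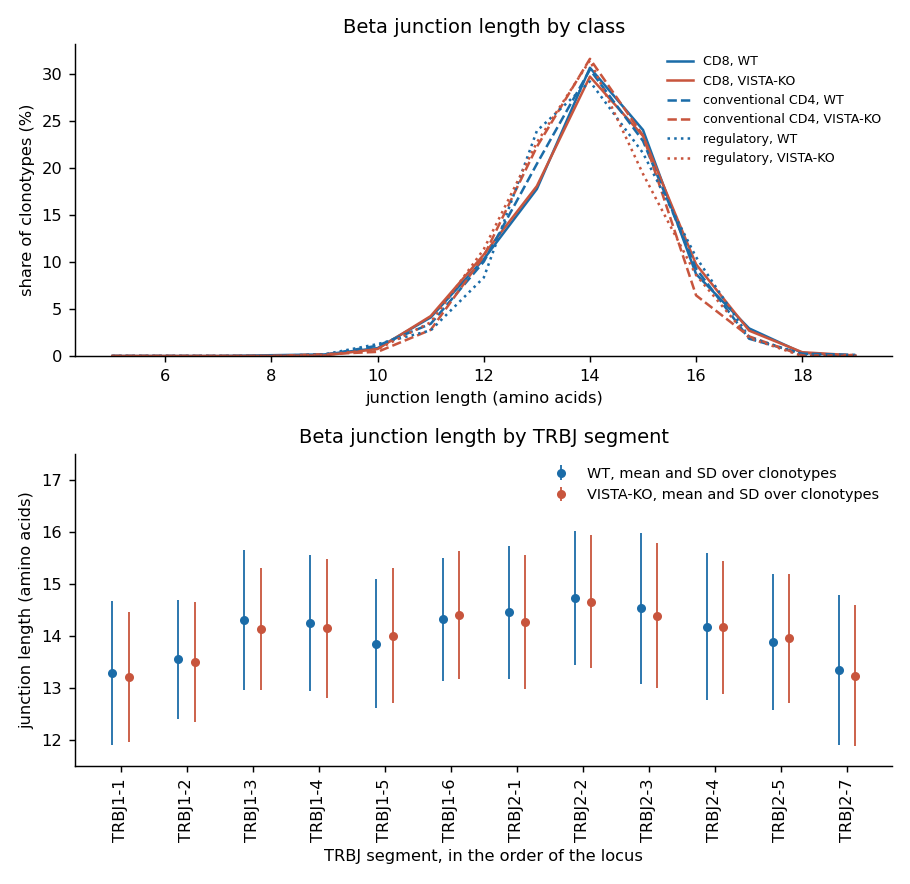
Top, share of clonotypes (%) at each beta junction length in amino acids for the 3 classes (line style) of WT (blue) and VISTA-KO (red); bottom, mean junction length with SD over clonotypes for each TRBJ segment, on a y axis that does not start at 0. All 6 curves peak at 14 amino acids, and TRBJ1-1 and TRBJ2-7 have the shortest and TRBJ2-2 the longest junctions in both libraries.

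The 2 libraries shared few rearrangements. Of 3005 WT and 4589 VISTA-KO beta clonotypes, 20 had the same V, J and junction bases, 0.666% and 0.436% of them, and 8 of the 20 used TRBV13-2. At the level of junction amino acids 74 were shared, 2.51% of WT and 1.64% of VISTA-KO. No shared clonotype had a cell barcode in common between the libraries. The 2 with most cells were expanded in CD8 cells of at least 1 pool and are shown with the bases between the V and J matches in capitals.

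TRBV13-2 with TRBJ1-1: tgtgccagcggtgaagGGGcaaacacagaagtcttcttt
TRBV16 with TRBJ2-4: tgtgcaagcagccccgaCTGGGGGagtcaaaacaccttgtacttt

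The TRBV13-2 clonotype was in 41 WT cells, 39 of them CD8, and in 4 VISTA-KO cells, 3 of them CD8. The TRBV16 clonotype was in 14 WT and 12 VISTA-KO cells, all CD8. The other 18 had at most 4 cells in either library.

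Cells with the TRAV11 and TRAJ18 alpha chain, the invariant rearrangement of NKT cells, gave a check of the beta calls that did not use the beta chain. They numbered 135 in WT and 111 in VISTA-KO, with 134 and 110 beta clonotypes. TRBV13-2 was in 69 and 42 of them, TRBV29 in 29 and 30 and TRBV1 in 8 and 9, the segments NKT cells are known to use. TRBV13-1 was in 19 and 8 of them and TRBV13-3 in 3 and 10. Of these cells 94 and 71 fell in none of the 3 classes, 26 and 30 in conventional CD4, 14 and 9 in CD8 and 1 and 1 in regulatory. Those in a class were counted in its shares. Their segments were not counted by class. Among all 3005 WT and 4589 VISTA-KO beta clonotypes, TRBV13-2 had 432 and 538, TRBV29 129 and 166 and TRBV1 166 and 259. In WT the TRBV1 share of TRAV11 and TRAJ18 cells was near that background, so TRBV1 adds little to the check. The TRAV1 and TRAJ33 chain of MAIT cells was in 4 and 3 cells.

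The gene expression libraries read the same V segments a second time. In cells with a contig and a Trbv UMI, the Trbv gene with most UMIs was that of the contig in 94.5% of WT and 95.5% of VISTA-KO cells. These values count Trbv4 as the gene of contigs called TRBV10. TRBV5 and TRBV10 were the exceptions. No Trbv UMI at all was found in 36.4% of WT and 47.1% of VISTA-KO cells with a TRBV5 contig. For TRBV10 this was 11.2% and 12.4%, and for the other segments 0% to 1.44%. Contigs called TRBV10 carried Trbv4 as the leading gene in 340 of 500 WT and 160 of 226 VISTA-KO cells, while Trbv10 had 0 and 4 UMIs in all. Vb10 is an older name of Trbv4 in RefSeq, and no contig was called TRBV4, so the TRBV10 shares given here may be those of Trbv4. Contigs with the combined call of TRBV12-2 and TRBV13-2 carried Trbv13-2 as the leading gene in 95.5% of 704 WT and 95.0% of 786 VISTA-KO cells and were counted as TRBV13-2.

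In the expression libraries a larger share of Trbv genes than of all genes differed between genotypes. Of 18 Trbv genes with at least 20 CPM in CD8 cells of a library, 8 differed 1.5 times or more (44.4%), against 85 of 6083 of all genes (1.4%). In conventional CD4 cells 6 of 18 did, against 3.28% of all genes, and in regulatory cells 6 of 16, against 3.84%. A Trbv gene rises with any large clonotype that uses it, so these shares are not separate evidence. They include cells without a contig and did not always repeat the usage by cells. In conventional CD4 cells Trbv2, Trbv12-2 and Trbv23 passed in both counts, and Trbv3, Trbv15 and Trbv20 by expression only. In regulatory cells Trbv12-1, Trbv13-3 and Trbv15 passed in the same direction in both, and Trbv20 and Trbv26 by expression only. Regulatory Trbv12-2 passed in opposite directions, at a log2 ratio of -1.01 by expression and a ratio of 3.59 by cells. Trbv4 in CD8 cells (30.8 and 9.08 CPM) and Trbv23 in conventional CD4 cells (6.04 and 25.9 CPM) reached 20 CPM in 1 library only. Trbv12-2 fell by 2.12 and Trbv13-1 was 1.60 higher on the log2 scale in VISTA-KO CD8 cells, from 481 to 107 CPM and from 150 to 463 CPM, after 5 CPM were added to each. Of 12 genes of V(D)J recombination 11 had UMIs in each library, with a summed level of 122 and 123 CPM in WT and VISTA-KO. Of the recombinase genes, Rag1 had 0 UMIs in WT and 1 in VISTA-KO and Rag2 had 1 and 0, while Xrcc6, a subunit of the Ku complex that binds broken DNA ends, had 1624 and 1379. Dntt, which adds the bases at the joints, had 163 and 84 UMIs, 83 and 45 of them in conventional CD4 cells. That class also had the highest summed level of plasmacytoid dendritic markers in both libraries. Which cells held the Dntt UMIs was not tested.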

How the data were processed

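UMI counts (gene by barcode, not normalized) and annotated receptor contigs were taken as the authors deposited them. The authors aligned both with the Cell Ranger 5.0.0 multi pipeline against GRCm38 references. The kit is a 5′ V(D)J kit per the methods and a 3′ kit per the labels. All 16144 WT and 17626 VISTA-KO contigs were productive and came from called cells. Contig UMI counts and read counts were whole numbers, with 7950 and 8785 beta contigs that held 112489 and 122716 UMIs, a median of 12 and 11 in a cell's chosen contig. Cells with at least 600 genes and under 30% mitochondrial UMIs were kept, as in the study. Doublets were not removed, and 5.37% and 6.78% of cells with a beta contig had 2, of which the one with most UMIs was used (ties in 21 and 22 cells went to most reads).

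Shares, exact intervals, distances, junction lengths and CPM were computed with Python 3.11.15, pandas 2.3.3 and scipy 1.17.1. CPM is a class's UMIs of a gene scaled by its total. Of these methods, only distances and the gene calls at 1.5 times were tried on simulated data. With 1 library per genotype no test was run. A segment was called different at 1.5 times if it had at least 2% in 1 library. Segments named in the text are those with at least 5% of cells or clonotypes in a class of 1 library, or past that fold with at least 2% of cells in a class, those of the 3 largest clonotypes of each class, all TRBJ, the ends of the locus and the 5 V and J pairs with most clonotypes; others with a difference between classes were named after their values were seen. The members and lists were chosen with earlier results of these data known. Junction bases come from the contigs and coordinates from RefSeq on GRCm38.p6. In the expression libraries, genes with at least 20 CPM in 1 library were compared at 1.5 times after adding 5 CPM. Alternatives were a contig minimum of 3 UMIs, cells with 1 beta contig, the contig with most reads, class thresholds of 2 UMIs, no Cd8 UMI in the CD4 classes, all barcodes, the largest clonotypes left out, V from expression, other definitions of a clonotype, another scaling and no filter on genes.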

Additional observations from a re-analysis of the deposited data

Results flagged for a closer look

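TRBV12-2 moved in opposite directions between classes by cells, with a ratio of VISTA-KO over WT of 0.209 in CD8, 0.412 in conventional CD4 and 3.59 in regulatory cells. The difference between classes was not tested. By clonotypes the ratio was above 1 in all 3 classes, at 1.56, 2.07 and 3.12. The intervals by clonotypes overlapped in CD8 and conventional CD4 cells and did not in regulatory cells. The conventional CD4 ratio rested on 6 WT and 24 VISTA-KO clonotypes, under 2% in both. By cells it turned to a log2 ratio of 1.52 in CD8 without the largest clonotypes. In conventional CD4 without cells holding a Cd8a or Cd8b1 UMI it turned to 1.08, on few WT cells.

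Some large clonotypes carried UMIs of a Trbv gene other than that of their contig. Trbv31 was found in 76.7% of cells of the largest WT CD8 clonotype (TRBV12-2) and in 1.42% of the other WT CD8 cells whose contig was not TRBV31. Trbv29 was in 57.0% of cells of the WT TRBV10 clonotype (1.21% elsewhere in the class), Trbv19 in 60.4% of the second VISTA-KO TRBV13-1 clonotype (2.43%), Trbv17 in 74.6% of the VISTA-KO TRBV19 clonotype (0.682%) and Trbv15 in 53.2% of the VISTA-KO conventional CD4 clonotype with TRBV26 and TRBJ2-1 (1.94%). Trbv13-2 was in 81.25% of cells of the largest WT conventional CD4 clonotype (TRBV20 with TRBJ2-1) and 13.4% of the others of that class. Others did not: the most frequent other gene was in 1.67% of the largest VISTA-KO CD8 clonotype, in 8.14% of the WT TRBV20 and TRBJ2-4 clonotype (Trbv13-2, 11.3% elsewhere in the class), in 3.92% of the VISTA-KO TRBV23 clonotype (3.14%) and in 0% of the WT regulatory TRBV3 clonotype. Only productive contigs were in the files, so a second rearrangement of these cells was not analysed here.

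Trbv24, for which no contig was called, had 295 UMIs in the WT and 333 in the VISTA-KO expression library, and among the 8 cells of the largest VISTA-KO regulatory clonotype (TRBV17 with TRBJ2-2) 62.5% held a Trbv24 UMI. A second productive beta contig was present in 405 WT and 558 VISTA-KO cells, and in 4 and 14 of them it was that of the library's largest clonotype. Cells with the TRAV11 and TRAJ18 chain outside the 3 classes numbered 94 and 71.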

How the results depend on the processing

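No paired analysis was possible because each genotype had 1 pool and no result comes from a test. Some alternatives were fixed at the start and others chosen after seeing the data (V names as deposited, clonotypes of both libraries left out). Under them 111 of 118 usage distances and all 66 junction length shares held. So did 251 of 259 segment ratios by cells, 104 of 110 by clonotypes and 175 of 176 ratios of CD8 over conventional CD4. Only ratios already past 1.5 times in the main values were followed, for the classes in both libraries. Their totals therefore do not describe segment ratios in general. Ratios held if on the same side and past 1.5 times, and length shares if within the counting error of the main value. Distances held if within the exact interval of a share of that size at the smaller count, which is not the counting error of a distance. These totals include alternatives that could not change a result. Asking for no Cd8 UMI in the CD4 classes leaves CD8 values as they were. By cells, the CD8 TRBV distance fell to 19.149 points without the largest clonotypes, where TRBV12-2 reversed to 1.518 (log2). Without cells holding a Cd8a or Cd8b1 UMI, the regulatory TRBV distances were 19.41 by cells and 15.44 by clonotypes. TRBV12-2 in conventional CD4 cells then reversed to 1.082, on few WT cells. With V read from expression UMIs the conventional CD4 distance by cells was 13.425. Class thresholds of 2 UMIs gave 26.651 points in WT and 27.603 in VISTA-KO between CD8 and conventional CD4 TRBV clonotypes, and 8.219 for regulatory TRBJ. The cause was not tested. Without a filter on low levels, 158, 391 and 410 genes passed 1.5 times in CD8, conventional CD4 and regulatory cells, since more genes were compared. Regulatory shares rest on the fewest clonotypes.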
